A study of Mus musculus with 48 samples.

Results

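The GRAMD1 family of sterol transfer proteins has 3 genes in mouse, Gramd1a, Gramd1b and Gramd1c, and their transcripts were followed here in liver after an advance of the light schedule. The members are the rows of the deposited count table with these gene names, 3 of 54532 genes, and all 3 were among the 14555 genes that passed the filter on low counts. Gramd1c was picked because earlier results of the same data showed a daily time course that differed between the arms, so its values by time are given as a description, with no test.

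The proteins of this family, also called Aster proteins, are anchored in the membrane of the endoplasmic reticulum. Their GRAM domain docks on the plasma membrane when that membrane holds accessible cholesterol, and their ASTER domain carries the sterol to the endoplasmic reticulum, where it can be sensed, esterified or converted. In mouse liver these carriers are known for moving cholesterol that arrives with high density lipoprotein, and in mouse adrenal gland the GRAMD1B protein is known for supplying cholesterol for steroid hormones.

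Liver RNA was sequenced from male wild-type C57BL/6 mice aged 8 to 10 weeks. In the phase shift arm the light cycle had been moved forward once by 6 h to mimic jet lag, while in the control arm the 12:12 light-dark cycle was kept; all animals were wild type and no drug is named. Livers of each arm were taken at 6 labelled zeitgeber times (ZT, counted in hours from lights-on), every 4 h with ZT0 as the earliest and ZT20 as the latest label, between the middle of day 6 and the middle of day 7 after the shift, with 4 libraries per arm and time and 48 in all. All samples carry 1 and the same treatment entry, so each library's arm comes from its title, and the labels do not say from which lights-on the ZT of the shifted mice is counted or whether each library is 1 mouse.

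The depth per library lay between 15370303 and 19639753 counts. Mitochondrially encoded transcripts made up 5.71% to 19.9% of the counts, with a median of 7.11%, and 8 libraries, 4 in each arm, exceeded 9.54%. In the phase shift arm these were ZT0 replicates 1 and 2 and ZT4 replicates 2 and 3, and in control they were replicate 1 at ZT4, replicate 2 at both ZT8 and ZT12, and replicate 1 at ZT20. All 8 hepatocyte markers were detected, with a summed level of 74752 to 110664 CPM (counts scaled to TMM-normalized library sizes, as edgeR computes it) in phase shift livers and 83326 to 146781 CPM in control livers. For many of the results below, the value without these 8 libraries is given too.

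The first comparison was the level of the 3 genes per length, read from the deposited FPKM values. Gramd1c stood highest, Gramd1a next and Gramd1b lowest in 48 of 48 libraries. Gramd1c averaged 7.13 ± 1.38 FPKM in phase shift livers and 7.61 ± 2.12 FPKM in control livers (SD, n = 24 each). Gramd1a averaged 2.05 ± 0.496 FPKM in phase shift livers and 2.17 ± 0.597 FPKM in control livers. Gramd1b averaged 0.180 ± 0.0585 FPKM in phase shift livers and 0.182 ± 0.0604 FPKM in control livers. The order was therefore the same in both arms and did not turn on any 1 library.

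**Figure D1:**
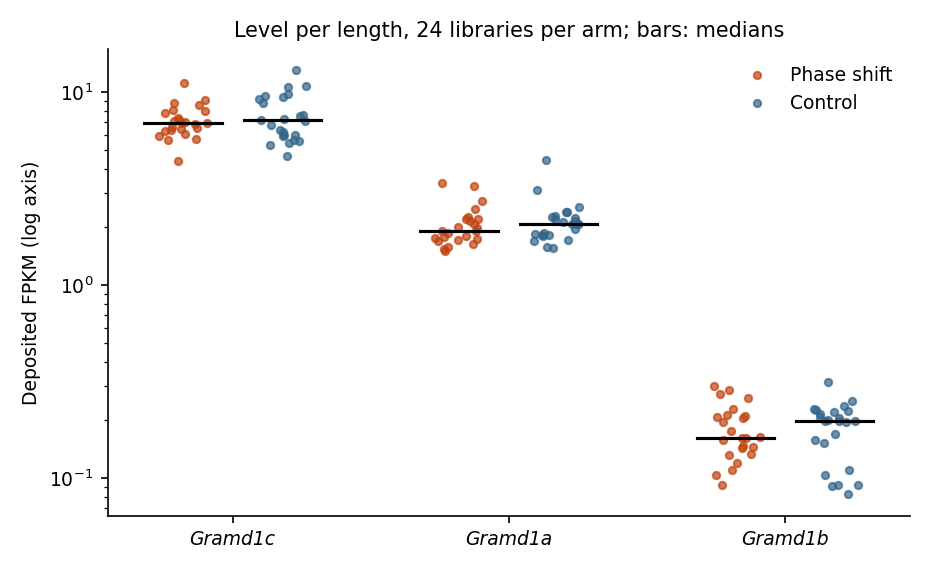
Deposited FPKM of the 3 genes on a log axis, with 1 point per library, phase shift left of control, and the median of each arm as a bar. The 3 genes occupy separate ranges, with Gramd1c between 4.39 and 13.0 FPKM, Gramd1a between 1.51 and 4.46 FPKM and Gramd1b between 0.0823 and 0.317 FPKM.

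Within a library the FPKM of Gramd1c was a median of 3.56 times that of Gramd1a (2.18 to 5.76 over the libraries), and the FPKM of Gramd1a was a median of 10.5 times that of Gramd1b (5.83 to 42.7). Gramd1c made up a median of 76.1% of the summed FPKM of the family, Gramd1a 21.5% and Gramd1b 1.89%. In counts, Gramd1c had 368 to 947 reads per library, Gramd1a 120 to 311 and Gramd1b 13 to 60. The values of Gramd1b thus rest on few reads and carry the largest counting error of the family.

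Averaged over the 6 times, none of the 3 genes passed the test for a difference between the arms. In edgeR's quasi-likelihood test with Benjamini-Hochberg adjustment over all genes tested, the mean log2 fold change, phase shift minus control, was -0.07 for Gramd1c (SE 0.06, adjusted p = 0.973). For Gramd1a it was -0.07 (SE 0.09, adjusted p = 1.00) and for Gramd1b 0.01 (SE 0.13, adjusted p = 1.00). The adjusted threshold here and below was 0.05, and in this comparison 0% of all genes tested passed it in edgeR, with 939 genes at an unadjusted p under 0.05 and 15 genes called by DESeq2. None of the 3 members was at an unadjusted p under 0.05. Since this is bulk tissue, fewer cells of a type and less RNA per cell cannot be told apart in any of these values.

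Gramd1c (ENSMUSG00000036292, chromosome 16, 43980350 to 44063345 of mm10, minus strand, protein coding) encodes Aster-C, the member with the highest transcript level in these livers. RefSeq gives 3 start sites for it on GRCm38.p6, at 44016436, 44027945 and 44042008, all inside that span. On the minus strand the gene as counted begins at 44063345, and no window covers that end. The windows run from 250 bases before to 50 bases after each start. They are shown because a gene with an altered daily course invites a look at the E-box, the motif that CLOCK and BMAL1 bind. Each is written 5′ to 3′ on the minus strand, with the letters CACGTG in capitals where they occur.
Gramd1c, chr16:44016387-44016686: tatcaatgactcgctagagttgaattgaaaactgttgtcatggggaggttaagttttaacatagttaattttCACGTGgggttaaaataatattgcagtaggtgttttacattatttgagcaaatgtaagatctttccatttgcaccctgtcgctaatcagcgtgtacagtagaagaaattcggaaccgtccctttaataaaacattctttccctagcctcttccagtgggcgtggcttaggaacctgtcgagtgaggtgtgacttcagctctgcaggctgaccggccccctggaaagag
Gramd1c, chr16:44027896-44028195: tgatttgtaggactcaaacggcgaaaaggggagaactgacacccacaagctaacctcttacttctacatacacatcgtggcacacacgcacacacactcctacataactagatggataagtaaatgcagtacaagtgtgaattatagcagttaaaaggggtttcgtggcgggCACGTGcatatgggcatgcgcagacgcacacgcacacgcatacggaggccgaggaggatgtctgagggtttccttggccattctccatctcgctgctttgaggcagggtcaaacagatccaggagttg
Gramd1c, chr16:44041959-44042258: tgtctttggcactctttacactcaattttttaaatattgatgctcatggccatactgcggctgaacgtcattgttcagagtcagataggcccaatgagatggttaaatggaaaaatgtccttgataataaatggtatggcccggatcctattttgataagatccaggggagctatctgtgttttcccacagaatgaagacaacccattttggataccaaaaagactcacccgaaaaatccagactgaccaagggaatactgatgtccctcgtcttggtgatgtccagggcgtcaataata

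The letters CACGTG, which read the same on both strands, begin 178 bases before the first of these starts and 78 bases before the second, and are not in the third window. Of 32851 RefSeq windows of 300 bases, 7.15% held CACGTG. The windows of Gramd1c and the 1 window of Gramd1a held no match on either strand to the nuclear receptor half-site AGGTCA (in 16.3% of windows), to the D-box letters TTATGTAA or TTACGTAA (in 1.06%) or to the sterol regulatory element TCACCCCAC (in 0.551%). None of these motifs contains another. The Gramd1a window also had no CACGTG, and Gramd1b has no window shown. The start of the Gramd1a window, at 31151171, is internal too, since that gene as counted begins at 31155896 on the minus strand. The matches and absences therefore describe these internal windows, and the upstream ends of the counted genes were not searched. A match is only a run of letters, and the gene-level counts do not tell which start the reads came from.

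By labelled time, Gramd1c ran a shallower and earlier daily course in phase shift livers than in control livers. At ZT0 it had 56.3, 40.6, 39.7 and 46.4 CPM in phase shift livers, against 36.2, 28.9, 30.4 and 34.6 CPM in control livers. All 4 shifted values lay above all 4 control values, with a log2 fold change of 0.49 (SE 0.14). At ZT4 it had 44.7, 36.2, 43.1 and 37.1 CPM in phase shift livers, against 48.4, 55.2, 48.2 and 44.7 CPM in control livers. Here all 4 shifted values lay below the control values, the highest of them by little, with a log2 fold change of -0.29 (SE 0.14).

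The gap was widest at ZT8. Gramd1c had 35.7, 30.2, 29.2 and 31.0 CPM in phase shift livers, against 49.4, 64.9, 53.9 and 38.9 CPM in control livers. The groups did not overlap, and the log2 fold change was -0.72 (SE 0.14), which is 0.609 times the control level. The control value of 64.9 CPM came from replicate 2, a library of high mitochondrial share. Without that library the log2 fold change was -0.59, and without all 8 such libraries it was -0.60, so the direction and most of the size remained.

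At labelled ZT12 and ZT16 the arms ran close together. At ZT12 Gramd1c had 36.1, 32.9, 41.0 and 32.8 CPM in phase shift livers, against 47.3, 36.6, 32.4 and 36.5 CPM in control livers. The 2 groups overlapped over most of their ranges, with a log2 fold change of -0.10 (SE 0.14). At ZT16 it had 31.8, 22.2, 28.9 and 32.4 CPM in phase shift livers, against 27.9, 38.3, 23.8 and 27.0 CPM in control livers, with a log2 fold change of -0.02 (SE 0.14). Leaving out 1 library was enough to turn the sign at both of these times. At ZT20 it had 34.7, 33.6, 34.9 and 35.2 CPM in phase shift livers, against 28.1, 30.3, 31.7 and 30.6 CPM in control livers, the tightest pair of groups, which did not overlap, with a log2 fold change of 0.20 (SE 0.14).

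Gramd1c therefore had groups that did not overlap at ZT0, ZT4, ZT8 and ZT20. Over all genes tested, the share whose 4 phase shift libraries did not overlap the 4 control libraries was 3.48% at ZT0, 3.93% at ZT4, 4.3% at ZT8, 4.53% at ZT12, 4.88% at ZT16 and 3.59% at ZT20. Gramd1c was picked on this pattern, so nothing is read from its count against these shares. Without the 8 libraries of high mitochondrial share its log2 fold change was 0.40 at ZT0, -0.28 at ZT4 and 0.17 at ZT20, close to the values from all libraries.

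**Figure D2:**
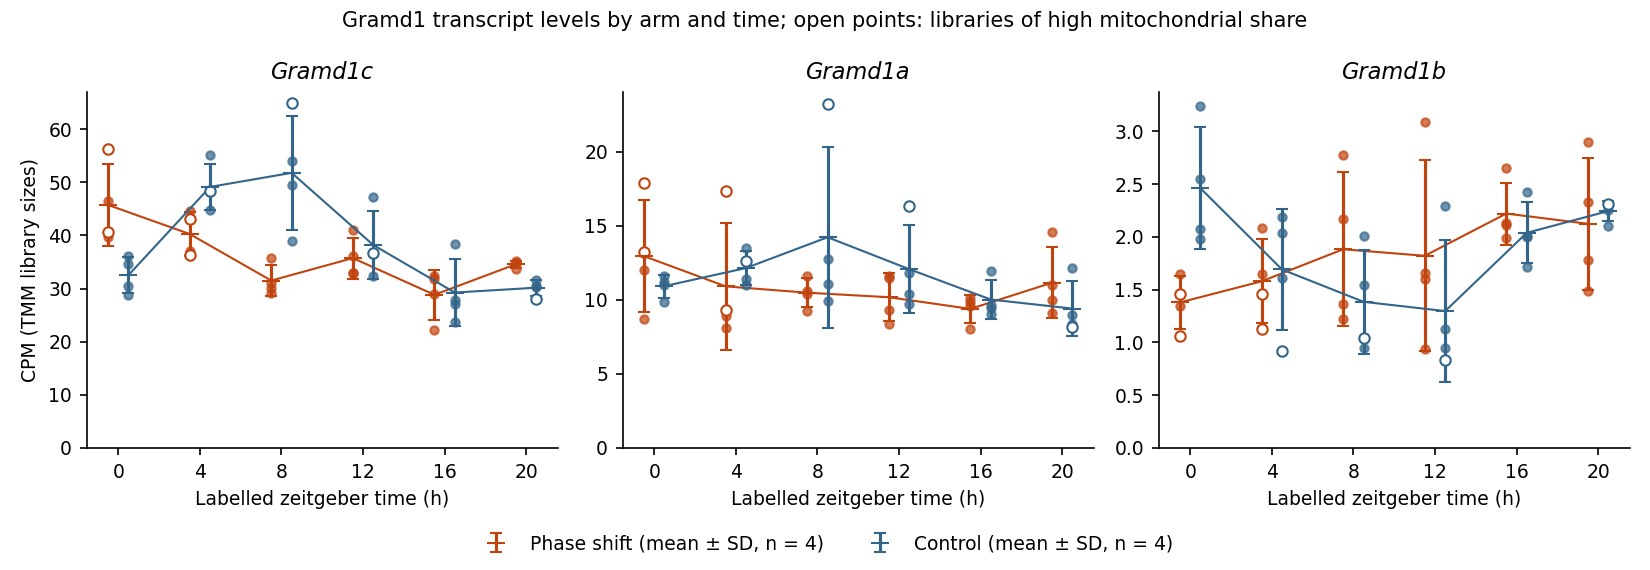
CPM of Gramd1c, Gramd1a and Gramd1b at each labelled time, with 1 point per library, phase shift left of control, a line through the means and bars of 1 SD (n = 4). Open points are the 8 libraries of high mitochondrial share. Gramd1c is highest at ZT0 in phase shift livers and at ZT8 in control livers, and the 4 highest points of Gramd1a are open ones.

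The order of the times differed between the arms. In phase shift livers the mean of Gramd1c was highest at ZT0 (45.7 ± 7.67 CPM, SD, n = 4) and lower at ZT4 (40.3 ± 4.23), ZT12 (35.7 ± 3.85), ZT20 (34.6 ± 0.688), ZT8 (31.5 ± 2.88) and ZT16 (28.8 ± 4.69). In control livers it was highest at ZT8 (51.8 ± 10.7 CPM) and lower at ZT4 (49.1 ± 4.38), ZT12 (38.2 ± 6.39), ZT0 (32.5 ± 3.44), ZT20 (30.2 ± 1.48) and ZT16 (29.3 ± 6.32). Without the libraries of high mitochondrial share the top of the control order turned, with 47.4 CPM at ZT8 and 49.4 CPM at ZT4 (3 libraries each), so that ZT8 leads there through replicate 2. Neighbours in either order, with all libraries, had overlapping ranges. The gap between neighbours was larger than the larger SD of the pair between ZT4 and ZT12 in both arms and between ZT20 and ZT8 in phase shift livers. The highest mean was 1.59 times the lowest in phase shift livers and 1.77 times the lowest in control livers.

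A 24 h cosine curve fitted by least squares to log2 CPM placed the peak of Gramd1c at ZT 1.65 (SE 0.98 h) in phase shift livers and at ZT 6.63 (SE 0.53 h) in control livers, a difference of -4.98 h (SE 1.11 h). Its fitted log2 amplitude was 0.24 (SE 0.06) in phase shift livers and 0.44 (SE 0.06) in control livers. Without the 8 libraries of high mitochondrial share the peaks were at ZT 2.02 and ZT 6.60 in the same order of arms, a difference of -4.58 h (SE 1.33 h). For scale, 2066 genes were called rhythmic in both arms, and their fitted peaks differed by a median of -0.14 h, with the lowest and highest deciles at -2.54 and 2.42 h. Gramd1c was picked for a changed daily course, so nothing is read from where its difference stands among them.

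Gramd1a (ENSMUSG00000001248, chromosome 7, 31130127 to 31155896 of mm10, minus strand, protein coding) encodes Aster-A, a broadly expressed member. Its groups overlapped between the arms at all 6 times. At ZT8 it had 10.4, 9.26, 11.6 and 10.6 CPM in phase shift livers, against 12.7, 23.2, 11.0 and 9.93 CPM in control livers. The groups overlapped, and 1 control library, replicate 2, stood far above the rest. The log2 fold change was -0.43 (SE 0.22, edgeR quasi-likelihood test, adjusted p = 0.435) with that library and -0.10 without it.

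The log2 fold changes of Gramd1a at the other times also moved with single libraries. At ZT0 it had 17.9, 13.2, 12.0 and 8.71 CPM in phase shift livers, against 11.0, 11.6, 11.2 and 9.83 CPM in control livers. The log2 fold change there was 0.24 (SE 0.22, edgeR, adjusted p = 0.727) and turned to -0.08 without the libraries of high mitochondrial share. At ZT4 it had 8.10, 17.3, 9.31 and 8.93 CPM in phase shift livers, against 12.6, 13.5, 11.4 and 11.0 CPM in control livers. Replicate 2 of the shifted group, again a library of high mitochondrial share, was the sole shifted value above the control values. The log2 fold change at ZT4 was -0.16 (SE 0.22, edgeR, adjusted p = 0.876) with all libraries, -0.47 without that replicate and -0.0374 without phase shift replicate 1. Without all 8 libraries of high mitochondrial share it was -0.50 (SE 0.19, edgeR, adjusted p = 0.348), the size then being larger at ZT4 than at ZT8. At ZT12, ZT16 and ZT20 its group means lay between 9.39 and 11.2 CPM in phase shift livers and between 9.41 and 12.1 CPM in control livers, with log2 fold changes of -0.24, -0.09 and 0.25 and overlapping groups. At ZT12 it was -0.0693 without the 8 libraries, -0.0370 with the mitochondrial share as a covariate and -0.0615 without control replicate 2. At ZT20 it ran from 0.0900 without phase shift replicate 2 to 0.39 without control replicate 4, and was 0.38 with the covariate.

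Gramd1b (ENSMUSG00000040111, chromosome 9, 40293233 to 40531383 of mm10, minus strand, protein coding) encodes Aster-B. At ZT0 it had 1.06, 1.46, 1.35 and 1.65 CPM in phase shift livers, against 2.08, 2.55, 1.98 and 3.24 CPM in control livers. All 4 shifted values lay below the control values, a separation that 3.48% of all genes tested also showed at ZT0. The log2 fold change was -0.83 (SE 0.32) and did not pass the adjusted threshold in edgeR (adjusted p = 0.657, unadjusted p = 0.0124). It ranged from -0.92 to -0.67 when 1 of the 8 libraries of ZT0 was left out. Shifted replicates 1 and 2 are of high mitochondrial share, and the log2 fold change was -0.71 (unadjusted p = 0.0666 in edgeR) without all such libraries and -0.60 (unadjusted p = 0.0524 in edgeR) with the share as a covariate. All 12 markers of liver sinusoidal endothelial cells also had a log2 fold change below 0 at ZT0, with a median of -0.62 and none called. Medians were also below 0 for markers of cholangiocytes (-1.09, 1 of 7 above 0) and Kupffer cells (-0.38, 1 of 12). The same held for stellate cells and fibroblasts (-0.13, 4 of 12) and neutrophils and monocytes (-0.37, 1 of 4). They were above 0 for hepatocytes (0.38, 6 of 8) and lymphocytes (0.17, 8 of 13). The part of these cell types in the value of Gramd1b was not tested.

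At the other times the groups of Gramd1b overlapped. At ZT8 it had 1.36, 2.17, 1.22 and 2.78 CPM in phase shift livers, against 1.54, 1.05, 2.01 and 0.943 CPM in control livers, with a log2 fold change of 0.44 (SE 0.32, edgeR, adjusted p = 0.579). At ZT12 it had 1.66, 0.937, 1.60 and 3.09 CPM in phase shift livers, against 0.946, 0.830, 1.12 and 2.29 CPM in control livers, with a log2 fold change of 0.49 (SE 0.32, edgeR, adjusted p = 0.806). In both groups at ZT12 replicate 4 stood above the other 3, and the log2 fold change was 0.11 without the shifted one and 0.91 without the control one, and 0.32 without the libraries of high mitochondrial share. At ZT8 it ran from 0.19 without phase shift replicate 4 to 0.68 without control replicate 3. The endothelial markers had medians of 0.52 at ZT8 and 0.50 at ZT12, with 12 of 12 above 0 at both times and none called. In the same order of times, the medians were 0.52 and 0.49 for cholangiocyte markers and 0.72 and 0.58 for Kupffer cell markers. They were -0.28 and -0.07 for hepatocyte markers, and those of the other lists were above 0 at ZT8 and below 0 at ZT12. At ZT4, ZT16 and ZT20 the log2 fold changes were -0.10, 0.12 and -0.08.

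Neither Gramd1a nor Gramd1b was called at any single time. The share of all genes tested that edgeR called was 0% at ZT0, 0.117% at ZT4, 0.131% at ZT8, 0% at ZT12, 0% at ZT16 and 0.295% at ZT20. At an unadjusted p under 0.05 there were 1072 genes at ZT0, 725 at ZT12 and 643 at ZT16, and Gramd1b at ZT0 was the sole member of the pair at that level. DESeq2 called neither gene at any time, and at ZT16 it gave neither an adjusted p.

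**Figure D3:**
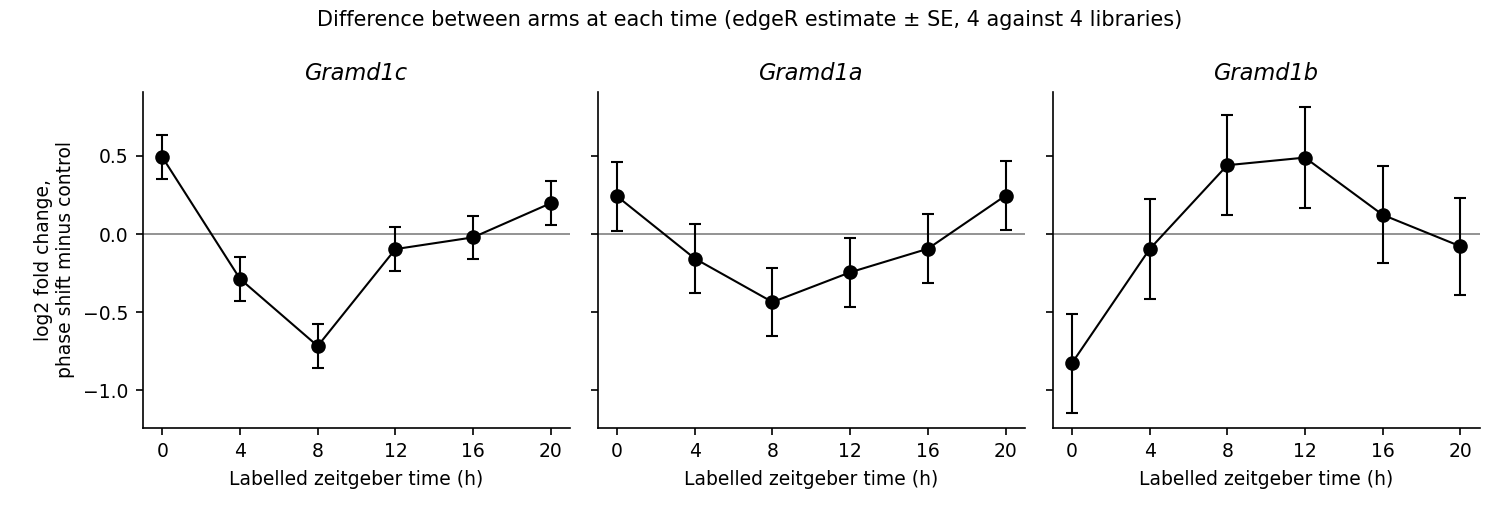
Log2 fold change, phase shift minus control, at each labelled time for the 3 genes, as edgeR estimate with bars of 1 SE (4 against 4 libraries). Gramd1c lies above 0 at ZT0 and reaches -0.72 at ZT8, Gramd1a follows a flatter course, and Gramd1b starts at -0.83 at ZT0 with the widest bars.

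The whole time course was compared next. Testing whether the arms differed in the shape of the daily course, edgeR gave an adjusted p of 0.596 for Gramd1a and 0.469 for Gramd1b, and 0.137% of all genes tested were called. In the test of differential rhythm, it was 0.208 for Gramd1a and 0.182 for Gramd1b in edgeR, with 0.186% of all genes called. Both genes had an unadjusted p under 0.05 in edgeR's differential rhythm test, as 2813 of all 14555 genes tested did. DESeq2's unadjusted p was 0.0211 for Gramd1a and 0.00768 for Gramd1b, but it gave neither an adjusted p there. DESeq2 could therefore call neither gene in this test. With the 8 libraries of high mitochondrial share left out, the unadjusted p in edgeR was 0.203 for Gramd1a and 0.113 for Gramd1b. The size of the rhythm difference for Gramd1a was then 0.17 on the log2 scale, against 0.34 with all libraries. With the share as a covariate the unadjusted p in edgeR was 0.0269 for Gramd1a and 0.0451 for Gramd1b (adjusted p = 0.255 and 0.298). The size was then 0.28 for Gramd1a and 0.42 for Gramd1b. For Gramd1c, picked on this readout, the root mean square departure of the 6 log2 fold changes from their mean was 0.38, against 0.25 for Gramd1a and 0.44 for Gramd1b. The median of this size over all genes tested was 0.23. It cannot be negative and grows with noise, and the SE at single times was 0.31 to 0.32 for Gramd1b and 0.14 for Gramd1c. The sizes of these genes therefore do not rank their change.

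Within control livers Gramd1a and Gramd1b were both called rhythmic with all libraries, and neither without the 8 libraries of high mitochondrial share. With all libraries 27.3% of all genes tested were called there. Gramd1a had a log2 amplitude of 0.27 (edgeR, adjusted p = 0.0428) with its fitted peak at ZT 7.26 (SE 1.24 h). The call depended on the settings and on single libraries. It was lost without the libraries of high mitochondrial share (adjusted p = 0.272), with that share as a covariate (adjusted p = 0.0742) and without the filter on low counts (adjusted p = 0.0637). It was also lost on leaving out control ZT0 replicate 4, ZT4 replicate 1 or 2, ZT8 replicate 2, ZT12 replicate 2, ZT16 replicate 2, 3 or 4, or ZT20 replicate 1, 2 or 3, with an adjusted p of 0.0502 to 0.288 in these 11 fits.

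Gramd1b in control livers had a log2 amplitude of 0.47 (edgeR, adjusted p = 0.0148) with its fitted peak at ZT 21.5 (SE 0.89 h), and no single library ended that call. Without the 8 libraries of high mitochondrial share the adjusted p in edgeR was 0.0844. With that share as a covariate the call was kept, at a log2 amplitude of 0.43 (edgeR, adjusted p = 0.0101). In phase shift livers, where 28.2% of all genes were called, neither gene passed the threshold. Gramd1a had a log2 amplitude of 0.17 (edgeR, adjusted p = 0.276) with its peak at ZT 0.62 (SE 2.36 h), and Gramd1b one of 0.26 (edgeR, adjusted p = 0.246) with its peak at ZT 15.6 (SE 1.92 h). The tests of differential rhythm above are the tests of the difference between arms, and neither gene passed them.

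The spread of Gramd1a and Gramd1b within groups moved with the mitochondrial share of the libraries. In an edgeR fit with that share as a covariate, the log2 level changed per doubling of the share by 0.54 for Gramd1a (SE 0.11, adjusted p = 4.38e-05) and by -0.56 for Gramd1b (SE 0.20, adjusted p = 0.0158). For Gramd1c the slope was 0.10 (SE 0.08, adjusted p = 0.344). In this comparison 51.9% of all genes were called, 25.4% with a rising and 26.5% with a falling slope, and the median slope was -0.00790. The slope of Gramd1a was 0.59 in phase shift libraries alone and 0.52 in control libraries alone, both called. That of Gramd1b was -0.63 in phase shift libraries alone and -0.43 in control libraries alone, and neither passed the threshold.

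In levels, Gramd1a had a median of 14.8 CPM (8.17 to 23.2) in the 8 libraries of high mitochondrial share and 10.3 CPM (8.02 to 14.6) in the 40 other libraries. Gramd1b had a median of 1.09 CPM (0.830 to 2.32) in the 8 libraries and 2.01 CPM (0.937 to 3.24) in the 40 others. Gramd1c had a median of 41.8 CPM (28.1 to 64.9) in the 8 libraries and 34.7 CPM (22.2 to 55.2) in the 40 others. Among the 40 libraries alone no slope was called, with 0.19 for Gramd1a (SE 0.28, edgeR, adjusted p = 0.740) and -0.82 for Gramd1b (SE 0.59, edgeR, adjusted p = 0.438).

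**Figure D4:**
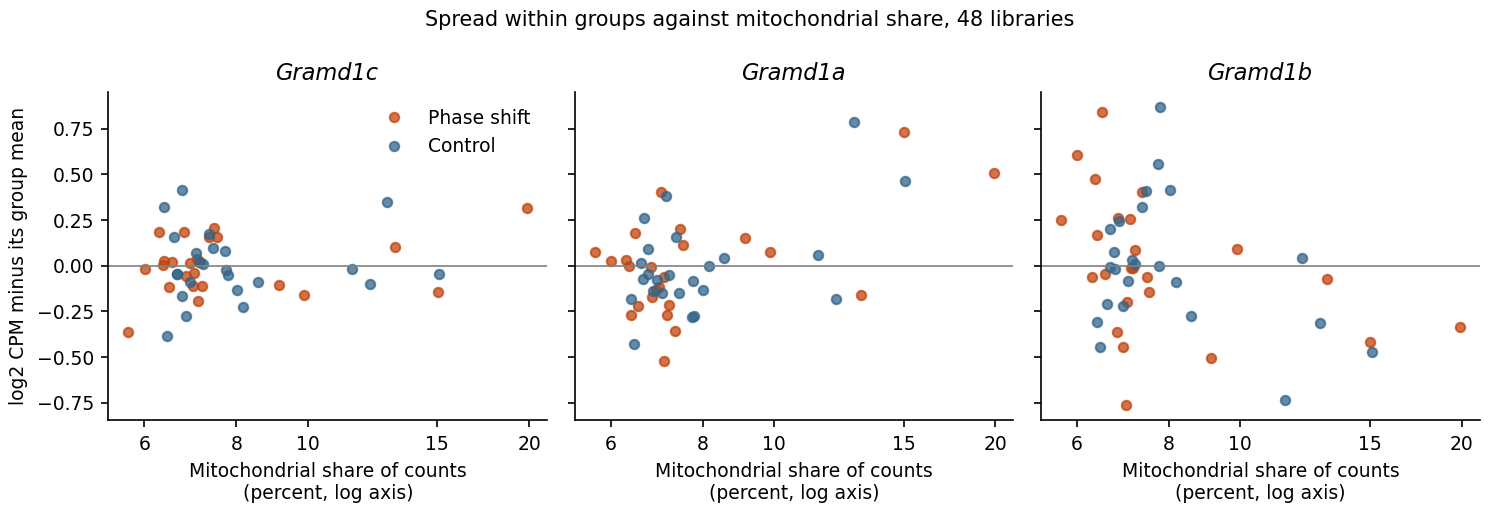
Log2 CPM of each gene minus the mean of its group, against the mitochondrial share of the library on a log axis, for 24 phase shift and 24 control libraries. The points of Gramd1a above a share of 9.54% include the highest of the panel, 6 of the 8 of Gramd1b there lie below 0, and those of Gramd1c lie on both sides of 0.

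Markers of some other cell types moved with the same share. All 12 markers of Kupffer cells, which are liver macrophages, fell with it, as did all 12 markers of sinusoidal endothelial cells, with median slopes of -2.59 and -2.15 log2 units per doubling. Summed Kupffer marker levels were 21.5 to 262 CPM in the 8 libraries and 164 to 781 CPM in the 40 others, and summed endothelial marker levels were 40.8 to 297 CPM and 159 to 536 CPM in the same order. Of 7 cholangiocyte markers 3 were called as falling with the share, with a median slope of -0.68. Of 8 hepatocyte markers 4 were called as rising and 1 as falling. Called in either direction were 4 of 12 stellate cell and fibroblast markers, 2 of 13 lymphocyte markers and 1 of 4 neutrophil and monocyte markers. The share called over all genes tested was 51.9%. No marker of the Kupffer and endothelial lists was at 0 in all libraries. Between arms no marker of these lists was called. The Kupffer list had a median log2 fold change of -0.38 at ZT0, with 1 of 12 above 0, and of 0.72 at ZT8 and 0.58 at ZT12, with 12 of 12 above 0 at both. Its summed level at ZT8 was 166 to 781 CPM in phase shift livers and 21.5 to 440.4 CPM in control livers. The part of these markers in the values of Gramd1a and Gramd1b was not tested. For Gramd1c, the log2 fold change at ZT8 was -0.69 and at ZT0 0.44 with the share as a covariate, close to the values without it.

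Across the 12 group means of log2 CPM, Gramd1a and Gramd1c had a Pearson correlation of 0.88, while Gramd1b had one of -0.72 with Gramd1a and of -0.76 with Gramd1c. These are descriptions over 12 points that share libraries and their composition. Without the 8 libraries of high mitochondrial share they were 0.41, -0.16 and -0.60 in the same order. Within an arm, over 6 group means without those libraries, Gramd1a and Gramd1c had a correlation of -0.16 in phase shift livers and of 0.87 in control livers, against 0.82 and 0.92 with all libraries.

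The genes annotated as protein coding whose 12 group means were most like those of Gramd1c were Snhg11 (r = 0.94), Vps53 (r = 0.93), E130311K13Rik (r = 0.93), Plgrkt (r = 0.92) and S100a16 (r = 0.92), out of 10439 candidates whose mean log2 CPM was 1 or more. Vps53 encodes a subunit of a complex that tethers vesicles from endosomes at the Golgi, Plgrkt a receptor for plasminogen at the cell surface and S100a16 a calcium-binding protein. Without the 8 libraries of high mitochondrial share E130311K13Rik kept an r of 0.92 and Plgrkt one of 0.85, while Snhg11 had 0.79, Vps53 0.69 and S100a16 0.63. At ZT8 the log2 fold changes were -0.51 for E130311K13Rik and -0.53 for Plgrkt, beside -0.72 for Gramd1c, and neither of these like genes was called (edgeR, adjusted p = 0.449 and 0.392). They were picked on group means that include ZT8, so nothing is read from this likeness. Within groups, over 48 libraries, their correlation with Gramd1c was 0.17 for E130311K13Rik and 0.39 for Plgrkt.

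The genes running most opposite to Gramd1c were Rbbp4 (r = -0.94), a histone-binding protein of chromatin complexes, Rcn1 (r = -0.93), Ugt2b37 (r = -0.92), a glucuronosyltransferase, Fcna (r = -0.90), a ficolin of innate immunity, and C8a (r = -0.90), a chain of complement component C8. C8a kept an r of -0.86 without the 8 libraries, while Ugt2b37 had -0.71, Rcn1 -0.54, Rbbp4 -0.50 and Fcna -0.14. Ugt2b37 belongs to a cluster of near-identical genes, so its counts are uncertain. Most like Gramd1a were Zmat5 (r = 0.94), 1700030K09Rik (r = 0.90) and Slc12a9 (r = 0.88), and most like Gramd1b were Notch1 (r = 0.96), Soga1 (r = 0.96) and Man1b1 (r = 0.95). Without the 8 libraries these 6 had an r of 0.58 to 0.85.

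**Figure D5:**
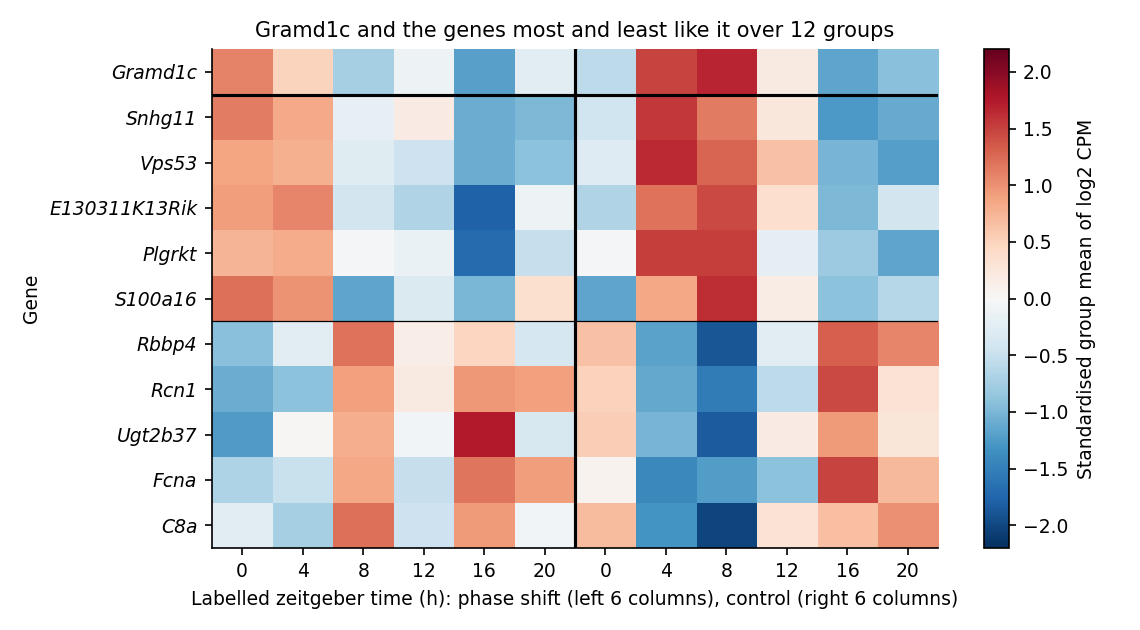
Standardised group means of log2 CPM for Gramd1c, the 5 genes most like it and the 5 most opposite to it (rows), at the 6 labelled times in phase shift livers (left) and control livers (right). The upper rows are high at ZT0 and ZT4 in phase shift livers and at ZT4 and ZT8 in control livers, and the lower rows run the other way.

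The wider setting of the family is the traffic of cholesterol between membranes. Lists of 7 groups of genes around it held 83 genes that were tested. None was called by edgeR in the average difference, at any single time, in the time course or in differential rhythm. At an unadjusted p under 0.05 there were 7 in the average difference, 13 in the time course and 23 in differential rhythm. Over all 14555 genes tested the same counts were 939, 1600 and 2813. At the single times, from ZT0 to ZT20 in order, the lists had 4, 10, 11, 5, 18 and 3 genes at that level. All genes tested had 1072, 1341, 1702, 725, 643 and 1067 in the same order. The lists thus had their highest count at ZT16, where the count over all genes was lowest. DESeq2 called 1 of the 83, Lpcat3, at ZT4, in the time course and in differential rhythm.

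Daily oscillation was common among these genes. Of the 83, 44 (53.0%) were called rhythmic in phase shift livers and 31 (37.3%) in control livers, against 28.2% and 27.3% of all genes tested. Among OSBP-related lipid transfer proteins, which exchange sterols and phospholipids between membranes, 8 of 10 were called in phase shift livers and 4 of 10 in control livers. Osbpl5 had a log2 amplitude of 0.79 in phase shift livers and 0.70 in control livers, with peaks at ZT 14.2 and ZT 15.6. Osbpl11 had 0.22 and 0.27, with peaks at ZT 18.5 and ZT 20.5. Osbpl8 had 0.19, not called, and 0.30, called with all libraries (edgeR, adjusted p = 0.00759) and not without the 8 libraries of high mitochondrial share (adjusted p = 0.122). Leaving out phase shift ZT4 replicate 1 made Osbpl8 called in phase shift livers too (edgeR, adjusted p = 0.0436).

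Of the START domain and lysosomal sterol carriers, 5 of 11 were called in each arm. Lipa, the acid lipase that frees cholesterol from esters in lysosomes, had a log2 amplitude of 0.37 in phase shift livers and 0.54 in control livers, with peaks at ZT 21.8 and ZT 21.3. Stard5, a cytosolic sterol carrier, had 0.27 and 0.38, with peaks at ZT 11.1 and ZT 11.4. Npc1, which exports cholesterol from lysosomes, had 0.66 in phase shift livers and 0.37 in control livers. Its call in control (edgeR, adjusted p = 0.0321) was lost without the filter on low counts and without control ZT8 replicate 1, 2 or 3, ZT16 replicate 3 or ZT20 replicate 4, with an adjusted p of up to 0.129.

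Of the tethers between the endoplasmic reticulum and the plasma membrane, 6 of 12 were called in phase shift livers and 4 of 12 in control livers. Stim2, a calcium sensor of the endoplasmic reticulum, had a log2 amplitude of 0.45 in phase shift livers and 0.46 in control livers, with peaks at ZT 14.3 and ZT 13.9. Orai1, the calcium channel such sensors open, had 0.26 and 0.31. Ano8 had 0.08, not called, and 0.36, called with all libraries and not without the 8 libraries of high mitochondrial share (edgeR, adjusted p = 0.121). Of the 2 GRAM domain relatives tested, Gramd4 was called in both arms with log2 amplitudes of 0.56 and 0.40, and Gramd3 in neither.

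In the group for sterol sensing and ester storage, 6 of 12 were called in phase shift livers and 7 of 12 in control livers. Insig2, which retains the SREBP escort protein in the endoplasmic reticulum, had a log2 amplitude of 1.08 in phase shift livers and 1.16 in control livers, with peaks at ZT 23.6 and ZT 0.41. Soat2, the enzyme that esterifies cholesterol arriving in the endoplasmic reticulum of hepatocytes, had 0.58 and 0.44, with peaks at ZT 7.08 and ZT 7.64. Ces1d, a carboxylesterase, had 0.64 and 0.94, with peaks at ZT 16.4 and ZT 18.6.

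Of the 21 genes of cholesterol synthesis and uptake under SREBP2, 10 were called rhythmic in phase shift livers and 4 in control livers. Their median average log2 fold change was -0.19, with 2 of 21 above 0, beside a median of -0.00146 over all genes, and none was called. The direction turned with the time of day, with a median of 0.29 at ZT0 (19 of 21 above 0), -0.74 at ZT16 (0 of 21) and 0.27 at ZT20 (21 of 21). Mvk, which encodes mevalonate kinase of that synthesis, had a log2 amplitude of 0.38 in phase shift livers, not called (edgeR, adjusted p = 0.0899), and 0.51 in control livers, called (edgeR, adjusted p = 0.0201). The call of Mvk in control was lost without control ZT8 replicate 2 (adjusted p = 0.114) and without the 8 libraries of high mitochondrial share (adjusted p = 0.153).

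Of the 15 genes of lipoprotein exchange and LXR targets, 8 were called rhythmic in phase shift livers and 6 in control livers. Abcg5 and Abcg8, the subunits of the transporter that secretes cholesterol into bile, had log2 amplitudes of 0.88 and 1.03 in phase shift livers and 0.66 and 0.60 in control livers. Their peaks lay at ZT 10.2 and ZT 9.05 in phase shift livers and at ZT 10.3 and ZT 8.33 in control livers. Abcb11, the bile salt export pump, had a log2 amplitude of 0.53 in phase shift livers and 0.52 in control livers. For none of the genes named in these groups did the differential rhythm test pass in edgeR (adjusted p of 0.156 to 0.965).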

How the data were processed

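RNA was measured by sequencing in 48 liver libraries. The authors deposited raw counts per gene and FPKM values, which divide each count by the length of its gene and by a library factor, for 54532 genes on mm10, per the submitters' processing notes and the file headers. Sequencing, mapping and quantification were done by a company, per the labels' protocols; the sources used here name no aligner or counter and do not state the use of strand. Each deposited FPKM equalled count over length over 1 factor per library, within 5.33e-13% above 100 counts.

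Counts were fitted with edgeR 4.0.16 in R 4.3.3 (filterByExpr on 12 groups, TMM, robust quasi-likelihood F tests, Benjamini-Hochberg adjustment over 14555 genes at 0.05), either with 12 group means or with harmonic terms of period 24 h, fitted separately in each arm. CPM used TMM library sizes, and log2 CPM a prior count of 2. SE of a log2 fold change was its size over the root of F. Peak times came from least squares, with delta-method SE. Amplitudes came from the edgeR fit, except those of Gramd1c and where least squares is named. A library was called high in mitochondrial share above the median plus 3 scaled MAD of all 48. Promoter windows are RefSeq's on GRCm38.p6, where 2 of the 3 members matched an entry. None of these members' windows covers the upstream end of its gene as counted. Alternatives were DESeq2 1.42.0, RLE normalization, no filter, replicate numbers as a block, the share as a covariate, other sets of libraries and leaving out each library. The edgeR tests were run on simulated data first.

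The members and gene lists were chosen with earlier results of these data known. Named genes are the members, the 5 most and 5 least like Gramd1c and the 3 most like each other member, and up to 3 per list by the p for rhythm in control; Lpcat3 was named after its values were seen. Some genes that this rule names are not reported here. Libraries of a group differed by more than sampling noise (mean chi-square per gene of 13.8 to 242 over 72 pairs); p-values measure the spread between these libraries, which may be technical in part. Serum metabolites were not analysed here.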

Additional observations from a re-analysis of the deposited data

Results flagged for a closer look

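Of 36 groups of 4 libraries (3 genes, 12 groups), 1 held a library far from its others by Dixon's criterion, which chance flags in about 1 of 20 groups. Gramd1a in the phase shift group at ZT4 stood at 17.3 CPM in replicate 2 and at 8.10 to 9.31 CPM in the other 3 libraries, a gap of 0.869 of the whole range. Mitochondrial transcripts made up 15.0% of that library, and their part in the value was not tested.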

How the results depend on the processing

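For Gramd1c, the direction at ZT0, ZT4, ZT8 and ZT20 was the same under all alternatives run; at ZT8 the log2 fold change ran from -0.83 to -0.59 when a library was left out. The average log2 fold change of Gramd1b, near 0, became -0.0161 with the mitochondrial share as a covariate and -0.00945 without the libraries of high share, and ran from -0.0551 to 0.0792 with a library left out. At ZT0 Gramd1a became -0.0377 with the covariate and -0.0767 without those libraries, and at ZT4 Gramd1b became 0.0378 with the covariate. With a library left out, Gramd1b ran from -0.30 to 0.0476 at ZT4 and from -0.26 to 0.0584 at ZT20, and Gramd1a from -0.14 to 0.000167 at ZT16; none of these was called.

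The control amplitude of Gramd1a was 0.27 without the filter, 0.20 with the covariate and 0.14 without the libraries of high share, no longer past the threshold, and ran from 0.17 to 0.31 with a library left out; that of Gramd1b was 0.38 without those libraries. Without them the fitted peak of Gramd1a was at ZT 19.3 (SE 9.65 h) in phase shift livers and ZT 5.38 (SE 1.48 h) in control livers. The least-squares amplitudes of these curves were 0.0308 (SE 0.07) and 0.13 (SE 0.05). The slope of Gramd1a on the share fell to 0.19 in the 40 other libraries. That of Gramd1b was -0.44 with the replicate block (adjusted p = 0.0737), -0.82 in the 40 libraries, -0.63 in phase shift libraries and -0.43 in control libraries alone, none past the threshold, and that of Gramd1c was -0.0223 in the 40. The cause of these changes was not tested.

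Counts over all genes moved more. DESeq2 called 15 genes in the average difference, 111 at ZT4, 74 at ZT8, 10 at ZT16, 126 in the time course and 178 in differential rhythm, where edgeR called 0, 17, 19, 0, 20 and 27. With the covariate the counts were 3, 58 at ZT4, 29 at ZT8, 129 at ZT20 (43 without it), 47 and 72. Without the libraries of high share they were 1 at ZT4, 7 at ZT8 and 0 at ZT20, and 1223 genes were called for the slope on the share, against 7555 with all and 4360 in control libraries alone. Without the filter they were 9 at ZT8, 25 at ZT20 and 45 in differential rhythm. With the 8 libraries of a time alone they were 0 at ZT4, 0 at ZT8, 13 at ZT16 and 0 at ZT20. With a library left out they ran from 0 to 3 in the average, 0 to 62 at ZT4, 1 to 33 at ZT8, 0 to 101 at ZT20, 7 to 29 in the time course and 6 to 52 in differential rhythm.

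A check on residuals showed no pairing of the libraries by replicate number. It cannot exclude one, since the residuals also hold the spread that goes with the mitochondrial share. Residuals of same-numbered libraries of the 2 arms correlated by -0.42 to 0.16, with 4 of 24 pairs over 0.1, and 3 of 24 phase shift libraries were closest to the control library of their own number. With the replicate block the calls were 1 in the average, 12 at ZT8, 0 at ZT20, 11 in the time course and 15 in differential rhythm. The alternatives for the slope, the pathway counts and the like genes were chosen after seeing the data. The 44 and 31 rhythmic pathway genes stayed within 38 to 48 and 25 to 37 under the alternatives other than leaving out a library. Counts of 13 to 60 limit what can be seen for Gramd1b.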

Other observations

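Lpcat3, an enzyme that remodels phospholipids and an LXR target, was the gene of the pathway lists closest to a call between arms. Its log2 fold change was 0.64 at ZT4 and 0.41 at ZT8 (edgeR, adjusted p = 0.0759 and 0.308), and DESeq2 called it at ZT4 (adjusted p = 0.0202). Its fitted peak lay at ZT 4.48 in phase shift livers, where it was called rhythmic (edgeR, adjusted p = 0.00839), and at ZT 18.8 in control livers, where it was not (adjusted p = 0.265). Without a called rhythm in control livers that peak is uncertain, and no shift is read from the pair.

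The genes that overlap the members on the genome had few reads. G630030J09Rik, antisense to Gramd1a, had 0 to 4 counts per library and Gm10640, also antisense to it, 0 to 3. Mir3470b, inside Gramd1c on the other strand, had 0 to 5. Whether the counting used strand is not given in the sources used here, and without strand the reads of a gene and its antisense partner cannot be told apart.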
